A study of Mus musculus with 6 samples.

Results

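The integrin chains described here are 10 genes for the surface receptors by which myoblasts hold on to matrix, chosen by name from the 52740 gene rows of the deposited table. They comprise 4 beta chains (Itgb8, Itgb1, Itgb3 and Itgb5) and 6 alpha chains (Itgav, Itga3, Itga4, Itga5, Itga6 and Itga7). The RNA came from C2C12 cells, an established line of mouse myoblasts, kept in medium with 10% fetal bovine serum and transfected by lipid with siRNA. The siCOX7A2L group received an siRNA aimed at Cox7a2l, which encodes a factor that links respiratory complexes III and IV, and the siCTRL group received a control siRNA, labelled siCTRL. Each group held 3 libraries, numbered 1 to 3, of total RNA depleted of ribosomal RNA and marked for strand. All cells are of 1 line and were transfected. The sources used here give neither the time after transfection nor the number of siRNA sequences. Whether replicates came from separate cultures is not labelled. The p-values therefore measure only how far these libraries spread, which may be technical.

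An integrin is a pair of 1 alpha and 1 beta chain, each crossing the membrane once, with the outer parts binding matrix and the short inner tails binding the actin skeleton through talin and kindlin. The beta 1 chain pairs with many alpha chains, among them the fibronectin receptor chain alpha 5, the VCAM1 and fibronectin receptor chain alpha 4, and the laminin receptor chains alpha 3, alpha 6 and alpha 7. The alpha v chain pairs with beta 1, beta 3, beta 5 and beta 8 and binds ligands with the RGD peptide. The alpha v beta 8 pair is known for binding latent TGF-beta and releasing its activity. Alpha 7 beta 1 is the main laminin receptor of skeletal muscle fibres, and alpha 4 and beta 3 have been linked to myoblast fusion and differentiation.

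The beta chain genes differ in the part that codes for the inner tail, which is shown because Itgb8, the chain described most closely here, has a tail unlike the others. The last 150 coding bases before the stop codon are given from the GENCODE M21 transcripts (GRCm38). Capitals mark the codons of the NPxY motif (x being any amino acid), a site that talin binds. Only exact NPxY was marked, and looser NxxY stretches in these tails were not searched for. The genes lie on chromosome 12 (Itgb8), 8 (Itgb1), 11 (Itgb3) and 16 (Itgb5).
Itgb8: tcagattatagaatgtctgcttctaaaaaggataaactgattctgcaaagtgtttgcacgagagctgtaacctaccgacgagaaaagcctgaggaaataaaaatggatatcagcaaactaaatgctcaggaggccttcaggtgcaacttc
Itgb1: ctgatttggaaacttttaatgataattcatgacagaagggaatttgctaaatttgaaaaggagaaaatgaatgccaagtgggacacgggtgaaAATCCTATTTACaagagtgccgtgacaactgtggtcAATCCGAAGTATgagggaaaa
Itgb3: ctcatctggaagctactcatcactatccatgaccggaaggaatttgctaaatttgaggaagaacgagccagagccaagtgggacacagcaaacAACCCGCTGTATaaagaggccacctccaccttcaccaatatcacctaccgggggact
Itgb5: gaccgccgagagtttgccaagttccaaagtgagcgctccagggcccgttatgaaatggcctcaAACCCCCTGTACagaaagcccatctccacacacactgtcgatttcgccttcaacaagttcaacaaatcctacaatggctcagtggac
Read in frame on the coding strand, the motif occurred 2 times in Itgb1, 1 time each in Itgb3 and Itgb5, and 0 times in Itgb8. Of 21542 protein-coding genes with 1 transcript each, 84 (0.39%) held it in their last 50 codons.

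The 6 alpha chains share a different stretch just inside the membrane, the GFFKR motif, which holds the alpha tail to the beta tail. It is shown in capitals within 30 coding bases of each gene, as what these chains have in common whatever their level. The genes lie on chromosomes 2 (Itgav, Itga4 and Itga6), 15 (Itga5), 11 (Itga3) and 10 (Itga7).
Itgav: aggatgGGCTTTTTCAAACGTgtccgacca
Itga4: aaggctGGATTCTTTAAAAGAcagtacaaa
Itga5: aagctcGGCTTCTTCAAACGTtccctcccc
Itga3: aagtgcGGCTTCTTCAAGCGAgcccgcact
Itga6: aagtgtGGCTTCTTCAAGAGAaataagaaa
Itga7: aagctgGGATTCTTCAAGCGGgcgaagcac
Each of the 6 held the motif in its last 100 codons. Its last occurrence began from 26 codons before the end in Itga5 to 75 in Itga7, the longest stretch of the 6. Over the same 21542 genes, 14 (0.065%) held it.

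The libraries held 9890218 to 17077826 estimated counts each, siCOX7A2L replicate 3 being the shallowest. Cox7a2l had 6.72, 5.90 and 3.59 CPM (counts scaled to a common library size) in siCOX7A2L replicates 1, 2 and 3, against 58.0, 59.5 and 58.9 CPM in siCTRL, 0.0923 times the control level (edgeR adjusted p = 1.91e-05). The 8 myoblast markers summed to 1608, 1366 and 3009 CPM in siCOX7A2L, against 1404, 1427 and 2001 CPM in siCTRL. Most of this was Des, at 954, 728 and 1892 CPM in siCOX7A2L and 766, 794 and 1072 CPM in siCTRL. Myod1 was at 118, 126 and 161 CPM in siCOX7A2L against 130.2, 127 and 134 CPM in siCTRL. Msc was at 3.80, 5.06 and 3.48 CPM in siCOX7A2L against 10.2, 9.22 and 5.91 CPM in siCTRL, groups apart. Its log2 fold change was -1.03 (edgeR adjusted p = 0.066 with the block, 0.0494 with only replicate 3 separated and 0.735 without the block). With the block none of the 8 was called, Myod1, Myf5, Des, Cdh15, Pax7 and Ncam1 being positive and Chrd (-0.07) negative. Leukocyte markers summed to 2.47 to 4.27 CPM in siCOX7A2L and 2.89 to 4.99 CPM in siCTRL over 8 genes, with Adgre1 at 0. Endothelial markers summed to 0.492 to 1.14 CPM in siCOX7A2L and 0.726 to 1.10 CPM in siCTRL over 6 genes, with Tie1 and Emcn at 0. In both groups replicate 3 differed from the other two, and markers of muscle differentiation (12 genes) summed to 39.5, 16.5 and 482 CPM in siCOX7A2L replicates 1, 2 and 3, against 16.2, 16.6 and 184 CPM in siCTRL. Of these, 3 were called higher in siCOX7A2L with the block, Tnnt1 (log2 fold change 2.03, edgeR adjusted p = 0.00226), Actc1 (1.55, 0.0263) and Acta1 (1.14, 0.0407), and none without it (0.846, 0.918 and 0.927). Over all genes 0.433% were called higher with the block. Of the rest tested, Myog, Myh3, Mymx, Tnnt3 and Myl1 were positive and Mymk (-0.04), Myl4 (-0.19) and Mef2c (-0.82) negative, none of them called. Fibroblast markers (8 genes, Tcf21 at 0) summed to 228, 360.2 and 852 CPM in siCOX7A2L, against 294, 298 and 790.4 CPM in siCTRL. Smooth muscle markers (5 genes) summed to 1042, 1140 and 2230 CPM in siCOX7A2L, against 624, 605 and 1087 CPM in siCTRL. Most of this was Acta2, at 933, 1014 and 1826 CPM in siCOX7A2L and 514, 483 and 809 CPM in siCTRL. In these 2 lists Dcn (1.72, edgeR adjusted p = 0.0419) and Acta2 (1.04, edgeR adjusted p = 0.00565, groups apart) were called higher with the block, and neither without it (0.822 and 0.735). Of their other tested genes none was called, Pdgfra, Postn, Cnn1 and Tagln being positive and Col1a1 (-0.05) and Smtn (-0.27) negative. The part of these markers in the results was not tested. Fold changes come from an edgeR quasi-likelihood fit over all genes in which the replicate number is a block, so that each siCOX7A2L library is set against the siCTRL library of its number. In these bulk samples, fewer cells of a kind and less RNA per cell cannot be told apart.

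Levels were compared between genes in TPM, a share of the library's transcripts that divides by length. Over the 6 libraries Itga7 averaged 96.6 ± 10.6 TPM, Itgb1 92.0 ± 12.4, Itga5 79.5 ± 11.97, Itga3 62.0 ± 23.0 and Itgav 56.6 ± 7.18 TPM (SD, n = 6). Next among the 10 came Itgb5 at 25.4 ± 4.94 TPM, Itga6 at 16.4 ± 7.04 and Itgb3 at 10.1 ± 3.13 TPM. Itgb7, none of the 10, averaged 11.8 ± 6.32 TPM and was above Itgb3 in 3 of 6 libraries. Itgb8 at 2.62 ± 1.07 TPM and Itga4 at 1.57 ± 1.11 TPM were the lowest of the 10. The laminin chain alpha 7, beta 1 and the fibronectin chain alpha 5 thus made up the most abundant messages, and the TGF-beta-binding chain beta 8 was present at a small share of them. Some neighbours in this order did not differ beyond their spread. Itga7 was above Itgb1 in 3 of 6 libraries, Itgb1 above Itga5 in 5, Itga5 above Itga3 in 5 and Itga3 above Itgav in 4. Itgav was above Itgb5 in 6 of 6 libraries, and Itgb5 above Itga6 in 6 of 6.

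**Figure D1:**
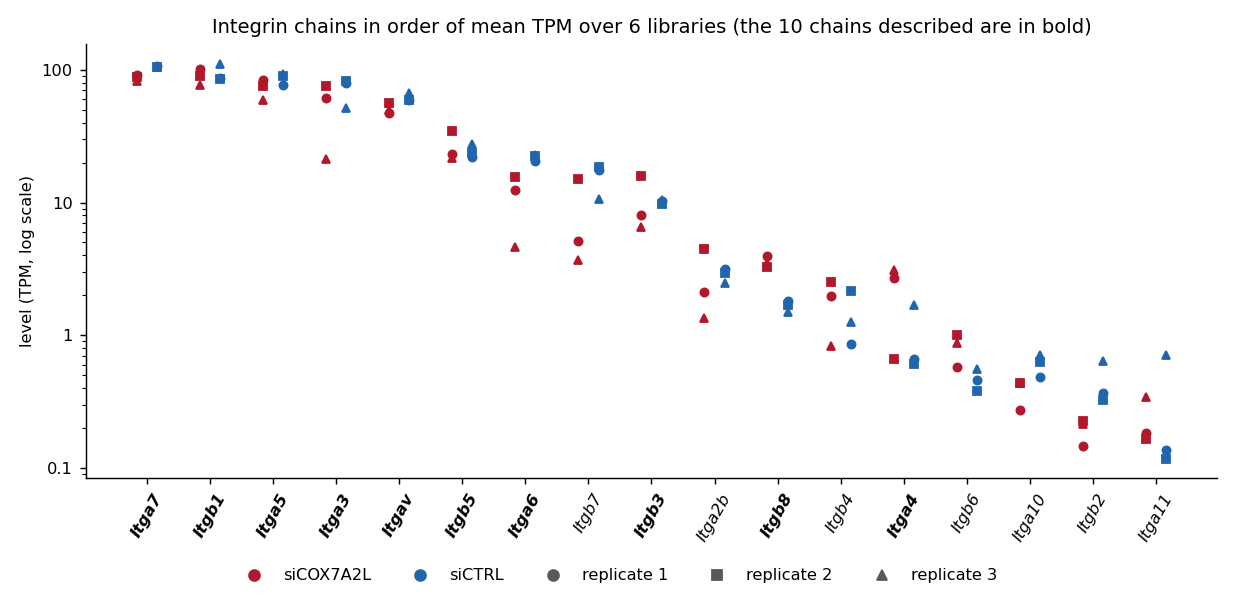
TPM (log scale) of the 17 integrin chains that passed the expression filter, in order of their mean, with 1 point per library (red siCOX7A2L, blue siCTRL, shape by replicate number). Itga7, Itgb1 and Itga5 lie highest, and Itgb8 and Itga4 are the lowest of the 10 chains in bold.

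Of the 10 chains, all of which passed the expression filter, 2 were called at an adjusted p under 0.05 with the replicate block, Itgb8 and Itga4, both higher in siCOX7A2L. Over all 15022 genes tested, 109 (0.726%) were called, 65 (0.433%) of them higher and 44 lower. The chains were chosen with this comparison known, so the calls describe the 10 genes and nothing is read from their number. The median log2 fold change was 0.09 over the 10 chains and 0.01 over all genes tested. At an unadjusted p under 0.05 there were 5 of the 10 chains and 17.7% of all genes (edgeR with the block). Without the block 0 of the 10 chains were called and 2 of 15022 genes were (0.0133%, edgeR), and at an unadjusted p under 0.05 there were 3 of the 10, Itgb8 (7.56e-05), Itga6 (0.0221) and Itgb5 (0.0381), and 6.35% of all genes. DESeq2 without the block called 27 genes (0.143%), with Itgb8 alone among the 10. When the fit separated only replicate 3 from the rest, it called Itgb8 alone of the 10, and 1.31% of all genes (edgeR). DESeq2 with the block called 3 of the 10, Itgb8, Itga4 and Itga6, and 4.01% of all genes with an adjusted p.

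**Figure D2:**
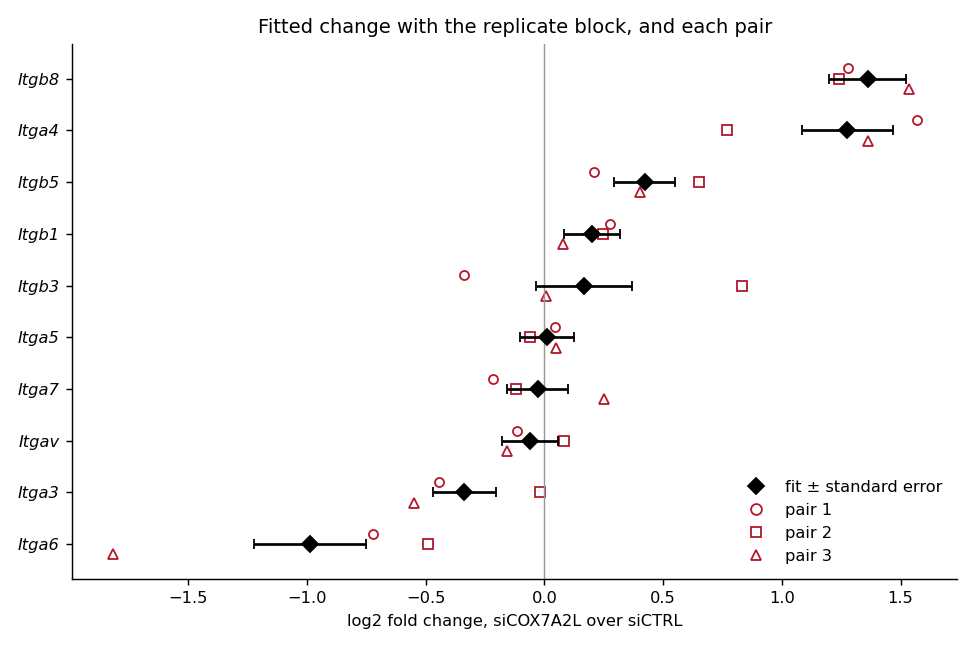
Log2 fold change of each chain, siCOX7A2L over siCTRL. Diamonds are the fit with the replicate block with its standard error, and open red symbols are pairs 1, 2 and 3 taken alone. Itgb8 lies near 1.36 with its 3 pairs close together, Itga4 near 1.28, and Itga6 at -0.99 with pair 3 at -1.82.

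Among the beta chains, Itgb8 rose. Itgb8 (ENSMUSG00000025321.15) had 428, 334 and 234 counts in siCOX7A2L replicates 1, 2 and 3, against 168, 143 and 155 in siCTRL. Scaled to depth, these were 27.1, 23.5 and 26.3 CPM, against 11.1, 9.84 and 8.98 CPM. The groups did not overlap, and the lowest siCOX7A2L library was well above the highest siCTRL library. The log2 fold change was 1.36 ± 0.16 (SE), or 2.57 times the control level (edgeR adjusted p = 0.00565, from the comparison with which the chains were chosen). Pairs 1, 2 and 3 gave 1.28, 1.24 and 1.53. With 1 pair left out Itgb8 was called at an edgeR adjusted p of 1.7e-04 without pair 1, 5.65e-07 without pair 2 and 0.0109 without pair 3. Those fits called 2.45%, 7.87% and 0.339% of all genes. They reuse the comparison with which the chains were chosen and are a description only. Without the block Itgb8 was not called (edgeR adjusted p = 0.311), with the same log2 fold change, 1.36. On the TPM scale the groups were likewise apart, at 3.96, 3.26 and 3.50 TPM in siCOX7A2L against 1.81, 1.69 and 1.50 TPM in siCTRL. Of its 11028 words of 31 bases, 0% occur in a transcript of another gene on either strand.

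None of the other beta chains passed the test (edgeR with the block), and Itgb5 was at an unadjusted p of 0.00796. Itgb5, which with alpha v binds vitronectin, had 88.9, 129.9 and 111 CPM in siCOX7A2L replicates 1, 2 and 3, against 77.0, 82.6 and 84.1 CPM in siCTRL. The CPM values did not overlap, while on the TPM scale they did, at 23.3, 34.4 and 21.5 TPM in siCOX7A2L against 21.9, 23.4 and 27.7 TPM in siCTRL. Its log2 fold change was 0.42 ± 0.13 (SE, edgeR adjusted p = 0.133). Itgb1, the common partner of the alpha chains, had 440.3, 420.2 and 489.6 CPM, against 364, 354 and 463 CPM in siCTRL. The groups overlapped, as siCTRL replicate 3 lay among the siCOX7A2L libraries, and the log2 fold change was 0.20 ± 0.12 (SE, edgeR adjusted p = 0.404). On log2(TPM + 0.1) it was -0.074, which is 0.17 above the median of all genes on that scale, -0.24. Itgb3, the other vitronectin receptor chain, had 55.4, 118 and 68.5 CPM, against 70.0, 66.3 and 68.2 CPM in siCTRL. Its siCTRL libraries lay close together and siCOX7A2L replicate 2 was far above the other 5 libraries. The log2 fold change was 0.17 ± 0.20 (SE, edgeR adjusted p = 0.716), turning to -0.18 without replicate 2. On log2(TPM + 0.1) it was -0.11, or 0.14 above the median of all genes.

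**Figure D3:**
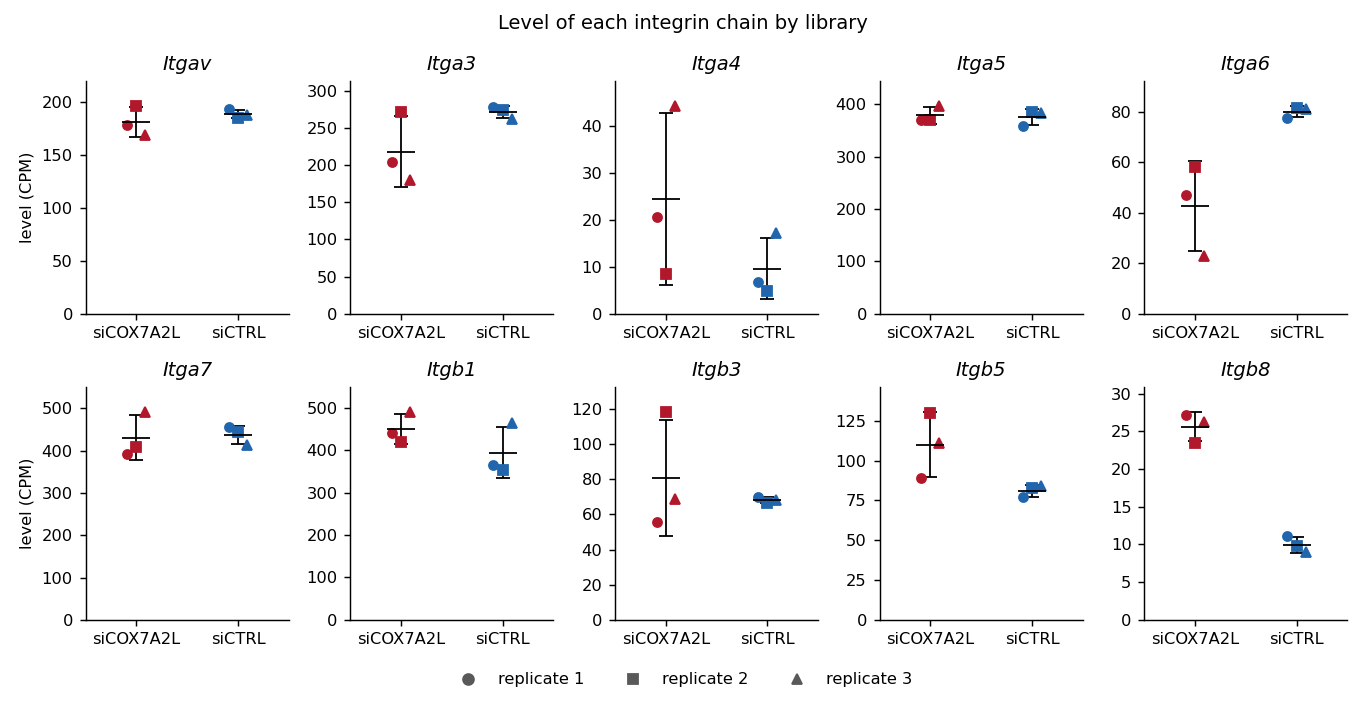
CPM of each of the 10 chains by library, siCOX7A2L (red) left of siCTRL (blue), with shapes for the replicate number and bars for the mean ± SD (n = 3). The groups do not overlap for Itgb8, Itgb5 and Itga6.

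Itgav, the partner of beta 8, was not called. It had 178, 196 and 169 CPM in siCOX7A2L replicates 1, 2 and 3, against 193, 185 and 188 CPM in siCTRL. The CPM groups overlapped, with a log2 fold change of -0.06 ± 0.12 (SE, edgeR adjusted p = 0.831). In TPM they did not, at 47.3, 56.6 and 50.2 TPM in siCOX7A2L against 59.4, 58.9 and 67.4 TPM in siCTRL. On log2(TPM + 0.1) the log2 fold change of Itgav was -0.27, with the median of all genes at -0.24. Within each library Itgb8 amounted to 8.37%, 5.77% and 6.97% of the TPM of Itgav in siCOX7A2L, against 3.05%, 2.88% and 2.22% in siCTRL. Relative to Itgb1 it amounted to 3.90%, 3.60% and 4.56% in siCOX7A2L, against 2.08%, 1.99% and 1.35% in siCTRL. In both ratios each siCOX7A2L library was above each siCTRL library. A ratio within a library does not depend on how libraries are scaled, and it shows unequal change only.

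Of the fibronectin-binding alpha chains, Itga4 rose and Itga5 was not called. Itga4 had 20.7, 8.43 and 44.4 CPM in siCOX7A2L replicates 1, 2 and 3, against 6.87, 4.89 and 17.2 CPM in siCTRL. The groups overlapped, yet within each pair the siCOX7A2L library was higher, by log2 differences of 1.57, 0.77 and 1.36. The fitted log2 fold change was 1.28 ± 0.19 (SE), or 2.42 times (edgeR adjusted p = 0.0189). It was not called without pair 3 (0.0669), with only replicate 3 separated in the fit (0.0705) or without the block (0.809). Without the block the log2 fold change was 1.33, and it was 0.58 when siCOX7A2L replicate 3 was left out and 2.05 when siCTRL replicate 3 was. Both replicate 3 libraries, where the summed differentiation markers were highest, also had the highest Itga4 of their group, and the part of those markers in the result was not tested. Cerkl, a gene on the opposite strand, shares 7.64% of the 31-base words of Itga4, and whether counting used strand is not stated.

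Itga5 had 370.4, 369 and 397 CPM in siCOX7A2L replicates 1, 2 and 3, against 359, 385 and 384 CPM in siCTRL. The groups overlapped, and the log2 fold change of 0.01 ± 0.11 (SE) was the smallest of the 10 chains in size (edgeR adjusted p = 0.977). By library size alone it was -0.035, with the median of all genes at -0.036, and on log2(TPM + 0.1) it was -0.26, with that median at -0.24.

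None of the 3 laminin receptor alpha chains passed in edgeR with the block, with Itga6 and Itga3 at unadjusted p-values of 0.00278 and 0.0291. Itga6 had 47.0, 58.1 and 22.9 CPM in siCOX7A2L replicates 1, 2 and 3, against 77.6, 81.8 and 81.1 CPM in siCTRL. The groups did not overlap, and siCOX7A2L replicate 3 was the lowest library. The log2 fold change was -0.99 ± 0.24 (SE), or 0.504 times, and did not pass in edgeR with the block (adjusted p = 0.0937). It did pass in DESeq2 with the block (adjusted p = 0.00119) and in edgeR without pair 1 (3.96e-04) or without pair 2 (1.09e-07), but not without pair 3, where it was -0.61 (0.0785). With no expression filter Itga6 also passed in edgeR with the block (adjusted p = 1.89e-08), as did 4.7% of all genes. The edgeR fits without pair 1, 2 and 3 called 2.45%, 7.87% and 0.339% of all genes. Pairs 1, 2 and 3 gave -0.72, -0.49 and -1.82. Other genes' transcripts share 6.15% of the 31-base words of Itga6 on the same strand, and 7.86% of those of Itgb5.

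Itga3 had 204, 272 and 179.7 CPM in siCOX7A2L, against 278, 275 and 263 CPM in siCTRL. Replicate 2 of siCOX7A2L lay within the siCTRL range and the other two below it, with a log2 fold change of -0.34 ± 0.13 (SE, edgeR adjusted p = 0.225). Itga7, the muscle laminin receptor chain, had 392, 409 and 491 CPM in siCOX7A2L, against 455, 444 and 413 CPM in siCTRL. These groups overlapped, with a log2 fold change of -0.03 ± 0.13 (SE, edgeR adjusted p = 0.937). In TPM the Itga7 groups did not overlap, at 91.7, 88.3 and 82.2 TPM in siCOX7A2L against 108, 105 and 104 TPM in siCTRL. On log2(TPM + 0.1) the log2 fold change of Itga7 was -0.28, near the median of all genes, -0.24. TPM depends on 1 gene row without a symbol that took 44.2% to 53.6% of all TPM in siCOX7A2L and 36.9% to 42.5% in siCTRL.

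CPM groups that did not overlap were thus found for 3 of the 10 chains, 2 with siCOX7A2L above (Itgb8 and Itgb5) and 1 below (Itga6). Over all genes tested, 7.96% had siCOX7A2L above and 7.62% below in this sense, 15.6% in all. The share of all genes with groups apart in TPM was not counted, so nothing is read from groups apart on that scale.

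The make-up of the integrin pools was followed as each chain's share of the summed TPM of all 18 alpha or all 9 beta chains in a library, which is free of the scaling between libraries. Among beta chains Itgb8 took 2.74%, 2.00% and 3.07% in siCOX7A2L replicates 1, 2 and 3, against 1.29%, 1.20% and 0.914% in siCTRL. Itgb1 took the bulk in both groups, 64.4 ± 7.70% in siCOX7A2L and 63.4 ± 3.94% in siCTRL, and Itgb5 took 18.7 ± 2.53% in siCOX7A2L and 16.4 ± 0.663% in siCTRL (SD, n = 3 each). Itgb3 held 6.99 ± 2.33% in siCOX7A2L and 6.85 ± 0.459% in siCTRL. Itgb7, none of the 10, held 3.52%, 9.20% and 3.25% in siCOX7A2L, against 12.6%, 13.1% and 6.53% in siCTRL, with overlap. Among alpha chains Itga6 took 4.10%, 4.93% and 2.08% in siCOX7A2L, against 5.92%, 6.15% and 6.58% in siCTRL, again without overlap. Itga4 took 0.886%, 0.208% and 1.39% in siCOX7A2L, against 0.191%, 0.168% and 0.490% in siCTRL, and these overlapped. Itga7 took 31.7 ± 4.67% in siCOX7A2L and 30.1 ± 0.952% in siCTRL. Itga5 took 26.0 ± 1.93% in siCOX7A2L and 24.5 ± 2.41% in siCTRL, and Itgav 18.7 ± 3.50% in siCOX7A2L and 17.6 ± 1.75% in siCTRL. Itga3 was at 17.9 ± 7.36% in siCOX7A2L and 20.2 ± 4.48% in siCTRL, with the lowest share of each group in replicate 3, 9.62% in siCOX7A2L and 15.0% in siCTRL. The summed alpha chains came to 302, 317 and 223 TPM in siCOX7A2L, against 349, 363 and 344 TPM in siCTRL, and the summed beta chains to 145, 163 and 114 TPM in siCOX7A2L, against 140.2, 141 and 164 TPM in siCTRL.

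**Figure D4:**
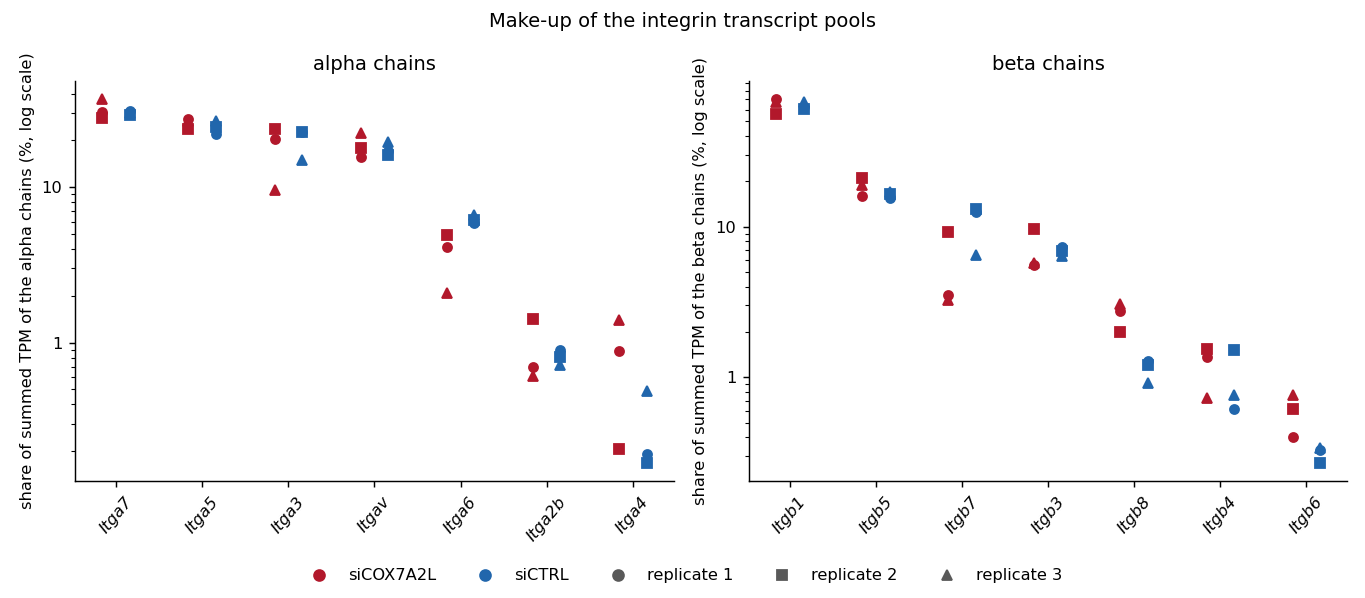
Share of each chain in the summed TPM of the alpha chains (left) and beta chains (right), in percent on a log scale, 1 point per library (red siCOX7A2L, blue siCTRL, shape by replicate number). Chains with a mean share of at least 0.5% in a group are shown. Itgb8 is higher and Itga6 lower in each siCOX7A2L library than in each siCTRL library.

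How the chains vary with the replicate number was tested in the same fit, with both number terms together, a contrast that did not serve to choose the genes. Of 15022 genes 2827 (18.8%) passed, and 1 of the 10 chains did. This was Itga4, with replicate 3 the highest of each group (edgeR adjusted p = 4.27e-04). For the other 9 chains the edgeR adjusted p lay between 0.261 (Itgb1) and 0.886 (Itga7), with 0.728 for Itgb8. The level of Itgb8 in siCTRL spanned 8.98 to 11.1 CPM over the numbers, while Itga4 spanned 4.89 to 17.2 CPM. With no expression filter Itgb3 and Itga6 also passed (adjusted p = 0.0235 and 0.0106), and on TPM, tested with limma, 0 of the 10 did.

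Of the 17 other integrin chains in the annotation, 7 passed the expression filter. None of these was called in edgeR with the block and that filter. At an unadjusted p under 0.05 there were 3 of the 7 (Itgb7, Itga2b and Itga10), where 17.7% of all genes were. Itgb7, known from lymphocytes, had 15.7, 44.7 and 4.38 CPM in siCOX7A2L replicates 1, 2 and 3, against 51.0, 54.1 and 18.7 CPM in siCTRL. It was low in replicate 3 of both groups, with a log2 fold change of -1.26 ± 0.35 (SE, edgeR adjusted p = 0.157). With no expression filter Itgb7 was called (edgeR with the block, adjusted p = 1.95e-07), as were 4.7% of all genes. Itga2b, the platelet partner of beta 3, had 5.39, 7.16 and 4.604 CPM in siCOX7A2L, against 4.95, 4.54 and 1.39 CPM in siCTRL. Itgb4 and Itgb6, chains of epithelia, stayed between 4.46 and 8.53 CPM and between 1.33 and 3.26 CPM. The collagen receptor chains Itga10 and Itga11 were at 1.20 to 2.81 CPM and 1.05 to 3.03 CPM in siCOX7A2L, against 2.84 to 3.48 CPM and 0.688 to 3.42 CPM in siCTRL. Itgb2, the leukocyte beta chain, had 0.507 to 0.898 CPM in siCOX7A2L, against 1.10 to 1.68 CPM in siCTRL. Itga2, Itgad, Itgax and Itgb2l were at 0 in all libraries, which allows up to 3 counts in each.

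Genes for proteins at the inner tails were examined next. Of 29 tested genes for activators and tail adaptors, such as talin, kindlin and integrin-linked kinase, 0 were called higher and 1 lower (edgeR with the block). Over all genes these shares were 0.433% and 0.293%. The median log2 fold change of the list was -0.02. At an unadjusted p under 0.05 in that fit there were 11 of the 29, against 17.7% of all genes. Higher among these were Ilk, Rsu1, Vcl and Tgfb1i1, and lower were Tln1, Ptk2b, Tns1, Tns2, Dab2, Rap1b and Lims2. The one called was Lims2, which encodes PINCH2, a partner of integrin-linked kinase. It had 4.18, 5.48 and 4.49 CPM in siCOX7A2L, against 9.44, 12.5 and 11.5 CPM in siCTRL. The log2 fold change was -1.23 ± 0.20 (SE, edgeR adjusted p = 0.0263, and 0.735 without the block). Of 10 genes for tetraspanins and other membrane partners 0 were called (edgeR with the block), with a median of -0.02 and 2 of 10 at an unadjusted p under 0.05, near the share of 17.7% over all genes.

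Ligands were examined by the chains that bind them. Of 17 tested RGD ligands and alpha v partners, 13 had a positive log2 fold change, where 51.1% of all genes did, and the median was 0.17. At an unadjusted p under 0.05 (edgeR with the block) there were 5 of the 17, against 17.7% of all genes. These were Fn1, Thbs1, Tgfb2, Tgfb3 and Ltbp3, each higher in siCOX7A2L. After adjustment 1 gene was called higher and 0 lower, against 0.433% and 0.293% of all genes. That gene was Fn1, fibronectin, the ligand of alpha 5 beta 1, at 4595, 4203 and 12181 CPM in siCOX7A2L replicates 1, 2 and 3, against 2704, 2753 and 5980.2 CPM in siCTRL. Replicate 3 was the highest of each group and the groups overlapped. Within pairs the siCOX7A2L library was higher each time, and the fitted log2 fold change was 0.80 ± 0.14 (SE, edgeR adjusted p = 0.0321, and 0.822 without the block). Chosen after their values were seen, the TGF-beta genes Tgfb1 and Tgfb3, whose latent products alpha v beta 8 binds, were not called, with Tgfb1 at 0.01 and Tgfb3 at 0.54 on the log2 scale (standard errors 0.14 and 0.15, edgeR adjusted p = 0.978 and 0.111). Lama2, the laminin alpha chain of muscle basement membrane and also chosen after its values were seen, had a log2 fold change of 0.29 ± 0.13 (SE, edgeR adjusted p = 0.273).

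The 5 genes whose log2 CPM followed Itgb8 most closely were Klhl24, Taldo1, Npr3, Rock1 and Atp6v0a2, with Pearson r of 0.997, 0.993, 0.990, 0.987 and 0.987 over the 6 libraries. These correlations are a description, since all points share the same libraries and 2 groups. Klhl24 had 53.5, 50.4 and 53.9 CPM in siCOX7A2L, against 29.1, 28.4 and 27.5 CPM in siCTRL, so that, like Itgb8, it varied little with the replicate number. Rock1, chosen like the others for this correlation, was not called (edgeR adjusted p = 0.217), with 98.4, 93.3 and 99.6 CPM in siCOX7A2L against 80.5, 79.9 and 74.7 CPM in siCTRL.

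In the authors' deposited table, Itgb8 has a log2 fold change of 1.36 (adjusted p = 1.24e-09), Itga4 of 1.32 (adjusted p = 0.00132) and Itga6 of -1.0 (adjusted p = 0.00116). That table calls 808 of its 12742 genes with an adjusted p (6.34%), and Itgb5 is at 0.43 with an adjusted p of 0.0923 there, in the authors' deposited values.

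**Figure D5:**
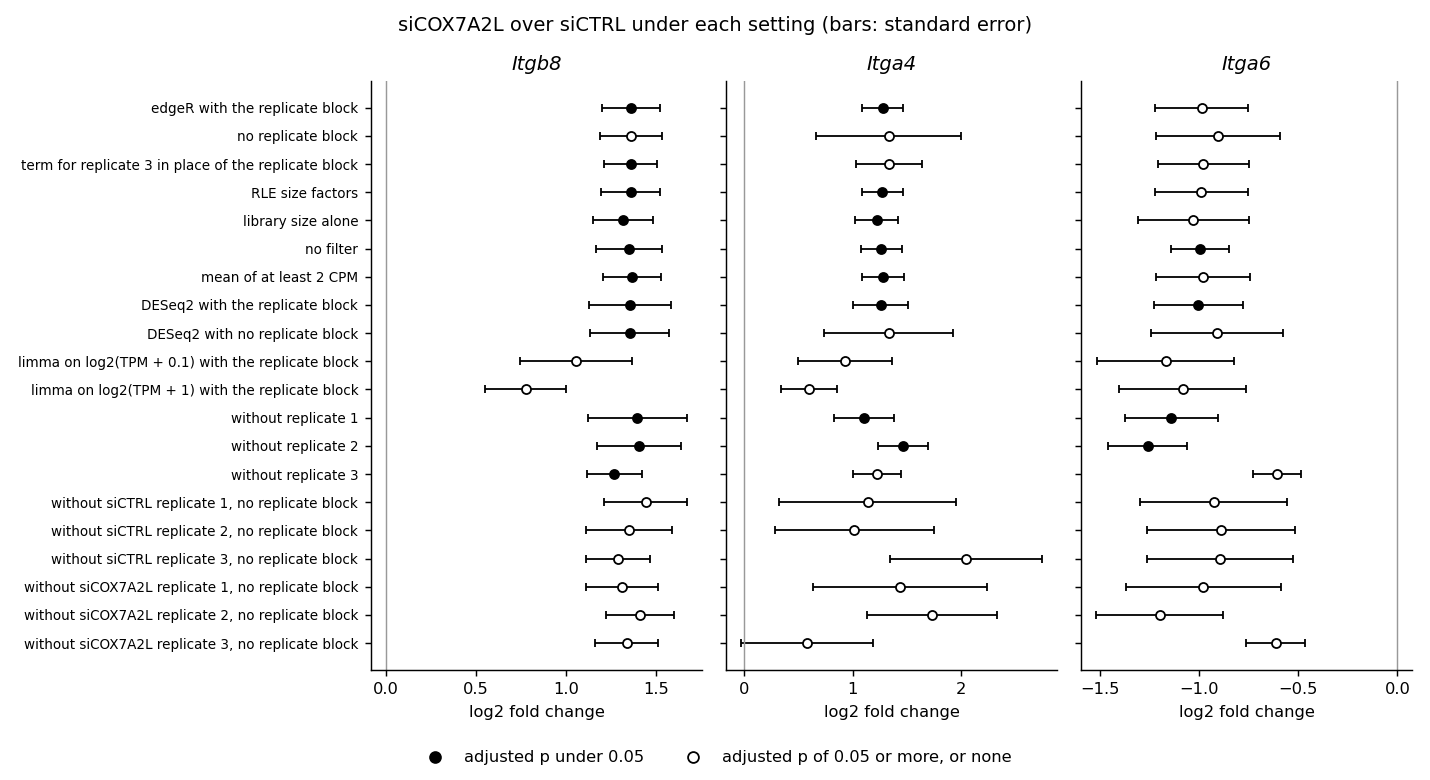
Log2 fold change, siCOX7A2L over siCTRL, of Itgb8, Itga4 and Itga6 under each setting, with bars for the standard error. Filled points had an adjusted p under 0.05. Itgb8 kept a positive value in each setting, from 0.78 to 1.44, and was not called in the edgeR fits without the block or in the limma fits on TPM.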

How the data were processed

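Each library began, per the labels' protocols, with 2 µg of RNA, depleted of ribosomal RNA, primed at random and made into dUTP-stranded libraries. Per the submitters' processing notes, the tools were Trim Galore 0.6.4, Salmon 0.13.1 and DESeq2 1.30.1, with genome build mm39 and no roles stated. The authors deposited estimated counts per gene, TPM, and a result table with, per the file headers, size-factor scaled counts (a normalised signal), log2 fold changes, a test score, and p-values with adjusted p-values.

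Symbols were joined by gene identifier without version (97.6% of rows matched GENCODE M21, GRCm38, so no coordinates are printed). Estimated counts are not whole and were rounded. The test was that of edgeR 4.0.16 under R 4.3.3, with TMM, default filter by group, robust quasi-likelihood, Benjamini-Hochberg at 0.05, group plus replicate number. CPM use TMM-scaled totals. Pair values use log2 CPM with a prior count of 2. Limma 3.58.1 and DESeq2 1.42.0 served as alternatives. The scripts were checked on simulated data. The design had foreseen whole counts, and the test was kept.

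The labels number both groups 1 to 3. Deviations from group means correlated at 0.532, 0.452 and 0.669 between libraries of the same number, against at most 0.435, 0.435 and -0.515 with another number. The difference was clear only for replicate 3. The deviations within a group cancel, so these values are not independent. The block was set by the plan and was not chosen from these correlations.

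Genes and lists were chosen with earlier results of these data known. Named genes were the 10 chains, other tested chains, called members of each list, Cox7a2l and the 5 genes most like Itgb8. For lists with no call the rule gave the 3 most abundant (Cd63, Cd81 and Bsg), whose values are not printed. The laminin list's result and 1 marker are not reported here.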

Additional observations from a re-analysis of the deposited data

How the results depend on the processing

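The sign of Itgb8 was positive under each setting. In edgeR without the replicate block Itgb8 was not called (1.36), while DESeq2 without the block called it (1.35, adjusted p = 4.54e-06). On TPM with limma it was not called (1.06 with 0.1 added and 0.776 with 1 added). The median over all genes was -0.24 and -0.20 there. Leaving out 1 library in edgeR without the block gave 1.29, 1.31, 1.34, 1.35, 1.41 and 1.44 with no call. Genes passing between the groups numbered 109 with the block, 2 without the replicate block, 197 with the term for replicate 3, 58 by library size alone, 1257 with no filter, 490 and 27 in DESeq2 with and without the block, 3 and 5 on TPM, 51 to 1210 without 1 pair, and 0 to 2 without 1 library and no block. The share of higher genes among those called was 65 of 109 in the fit used, 41 of 58 by library size alone and 568 of 1257 with no filter. For the replicate number 2827 genes passed, 4453 with no filter, and 815 and 843 on TPM.

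Some uncalled values changed sign, among them Itga2b, at 0.75 ± 0.31 (SE, edgeR adjusted p = 0.235) in the fit used. By library size alone the value that turned was Itga5 (-0.035). On TPM with 0.1 and with 1 added these were Itgb1 (-0.074 and -0.073), Itgb3 (-0.11 and -0.091), Itga5 (-0.26 and -0.25), Itga2b (-0.26 and -0.16) and Atp6v0a2 (-0.093 and -0.083). Those scalings shift all genes: relative to the median of all genes in the same fit, Itgb1 was at 0.17 and 0.12, Itgb3 at 0.14 and 0.11, Atp6v0a2 at 0.15 and 0.11, Itga2b at -0.012 and 0.034 and Itga5 at -0.010 and -0.056, and Itga5 by library size alone lay at that fit's median, -0.036. With 1 pair left out, Itga5 ranged from -0.011 to 0.038, Itga7 from -0.17 to 0.064, Itgb3 from -0.18 to 0.42 and Itgb6 from -0.12 to 0.34. With 1 library left out and no block, the turned values were -0.023 and -0.030 for Itga5, 0.0066, 0.037 and 0.0041 for Itga7, -0.15 for Itgb3, -0.24 for Itgb6, and -0.29, -0.33 and -0.64 for Itga11. The cause of the changes with libraries left out was not tested.

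Depth limits Itgb8 to 143 to 428 counts per library and Itga4 to 71 to 395.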
